A study of Homo sapiens with 48 samples.

Results

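The genes described are 37 genes of the ATF4 stress response and of amino acid supply, chosen by symbol from a list of transcription factors, stress effectors, biosynthetic enzymes, transporters and a tRNA exporter. All 37 are among the 37706 genes of the count table, and 36 of them are among the 17749 genes with enough counts to be tested. The untested one is NUPR1, a stress-induced chromatin protein, which had 5 counts in all 48 libraries together. RNA was sequenced from 4 established cell lines of germinal centre B-cell-like diffuse large B cell lymphoma (SUDHL6, Oci-Ly7, Oci-Ly8 and Oci-Ly18). Each line was kept for 6 days, with a reseeding at day 3, in EPZ-5676 (DOT1Li, an inhibitor of the histone H3 lysine methyltransferase DOT1L), in GSK343 (EZH2i, an inhibitor of the Polycomb methyltransferase EZH2), in both (Combo), or in the vehicle DMSO. The 16 groups hold 3 libraries each, and in such bulk RNA fewer cells in a state and less RNA per cell cannot be told apart. The series addresses how DOT1L and EZH2 act on Polycomb target genes in these lymphoma cells. The lines are models grown without other cell types, no source used here states the doses, and nothing says whether the replicates were separate cultures, so p-values measure the spread between these libraries only.

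ATF4 is a basic leucine zipper transcription factor. When amino acids run short or misfolded proteins build up, kinases phosphorylate the initiation factor eIF2alpha, general translation slows, and the ATF4 mRNA is translated more. ATF4, often paired with a C/EBP protein, then switches on genes for amino acid transport, for serine, glycine and one-carbon synthesis, for asparagine and proline synthesis, and for charging tRNAs, while ATF3, DDIT3 (CHOP), TRIB3 and CHAC1 belong to the stress and death arm of the same response. Because ATF4 is controlled largely at translation, its mRNA level is only a partial readout of its activity. Proliferating B cells draw heavily on these supply genes, which MYC also drives.

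Library totals ran from 5174269 to 18845074 counts, and the lowest belonged to Oci-Ly8 DOT1Li replicate 3, with the next at 11391942. That library and Oci-Ly8 DMSO replicate 3 held relatively few counts from long transcripts: the slope of log2 CPM on log2 exon length was 0.499 and 0.473, against at least 0.590 in the other 46 libraries. Oci-Ly7 DOT1Li replicate 1 also stood apart among the genes described here, with SLC7A5 at 326 CPM (a count scaled to library size, with TMM factors) against 177 and 194 in the other DOT1Li libraries of that line and 375, 312 and 312 in DMSO. The 10 germinal centre B markers summed to between 1679 and 3222 CPM in every group. In each SUDHL6 group 1 of them had 0 counts. In DMSO, BCL6 was 15.1 CPM in SUDHL6 against 113 to 209 in the other lines, and MS4A1 was 41.5 against 555 to 1415. PAX5 and MME were higher in SUDHL6 DMSO, at 818 CPM against 194 to 514 and 667 against 111 to 313. T cell markers summed to at most 49.9 CPM, most of it from CD247, and myeloid markers to at most 22.2. Epithelial or fibroblast markers summed to at most 22.95 CPM, in Oci-Ly18 Combo against 6.36 in its DMSO group. CD3D, CD2, CD68, EPCAM and DCN were at or near 0 in DMSO, but they are only part of their lists. The myeloid sum was 18.7 CPM in SUDHL6 DMSO. With Combo, all 4 tested epithelial or fibroblast markers rose in Oci-Ly18, where 21.1% of all genes did. All 3 tested myeloid markers rose with Combo by the mean of the 4 lines (25.7% of all genes), and 0 in SUDHL6 alone. Plasma cell markers summed to between 116 and 1262 CPM, with 817 in Oci-Ly7 Combo against 1262 in its DMSO group and 116 in Oci-Ly8 Combo against 184. In Oci-Ly8 the T cell markers summed to 49.9 CPM in Combo against 22.3 in DMSO. Of the 10 germinal centre markers, 6 fell and 2 rose with Combo in Oci-Ly7, and 6 fell and 1 rose in Oci-Ly18. In Oci-Ly8 1 fell and 6 rose, and in SUDHL6 1 fell and 6 rose. Of all genes, 12.2% fell and 17.7% rose in Oci-Ly7, and 14% and 21.1% in Oci-Ly18. The shares were 16.9% and 18.1% in Oci-Ly8 and 16.8% and 22.6% in SUDHL6. The part of these markers in the results below was not tested. DOT1L mRNA fell with DOT1Li (mean log2 fold change -0.15, SE 0.04, adjusted p = 0.0106) and EZH2 mRNA fell with EZH2i in SUDHL6 (-0.33, SE 0.06, adjusted p = 4.55e-05) and Oci-Ly18 (-0.18, SE 0.06, adjusted p = 0.0258) but not in Oci-Ly7 (0.15, SE 0.06, adjusted p = 0.0891) or Oci-Ly8 (0.03), although both agents act on the enzymes and not on the transcripts. MYC fell with Combo by the mean of the 4 lines (-0.21, SE 0.05, adjusted p = 0.000107), but rose in Oci-Ly18 (0.44, SE 0.09, adjusted p = 9.65e-05) while falling in SUDHL6 (-0.87, SE 0.09, adjusted p = 9.12e-11).

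In DMSO the members spanned a wide range of levels. ATF4 lies at chr22:39519695-39522683, SLC7A5 at chr16:87830023-87869507 and MTHFD2 at chr2:74186172-74217565 (GRCh38, whole gene). Per kilobase of exon, ATF4 was the highest member in every line, at 255 ± 22.6 RPKM in Oci-Ly7, 263 ± 75.4 in Oci-Ly8, 178 ± 5.33 in SUDHL6 and 223 ± 19.8 in Oci-Ly18 (mean ± SD, n = 3, DMSO). ATF5 had 157 ± 14.4 RPKM in Oci-Ly7 and 58.5 ± 9.63 in Oci-Ly8, the extremes of its 4 lines. The mitochondrial one-carbon enzyme MTHFD2 was lowest in Oci-Ly7, at 63.9 ± 7.29 RPKM, and highest in SUDHL6, at 95.1 ± 0.478. Mean CPM in the highest line was 1.48-fold that in the lowest for ATF4 and 1.49-fold for MTHFD2. The 4 ATF4 pseudogenes in the table held 0.828% as many counts as ATF4. The DMSO level differed between lines for 36 of the 36 tested members (edgeR F test, adjusted p under 0.05), where 93.1% of all tested genes did so. The widest gaps were in genes that some lines barely express. ALDH1L2, a mitochondrial folate dehydrogenase, had 12.9 ± 4.62 RPKM in Oci-Ly8 DMSO and 0.0148 ± 0.013 in SUDHL6. VLDLR, a lipoprotein receptor induced by ATF4, had 34.4 ± 0.985 RPKM in SUDHL6 and 22.4 ± 0.66 in Oci-Ly18, but 0 counts in the 3 Oci-Ly7 DMSO libraries and 1 in those of Oci-Ly8. STC2, a secreted glycoprotein, had 8.06 ± 0.538 RPKM in SUDHL6 and at most 4 counts over the 3 DMSO libraries of any other line. ASNS (asparagine synthetase), a textbook ATF4 target, was listed at only 665 counts over all 48 libraries, and an overlapping long noncoding RNA on the same strand (ENSG00000284707, 1168 counts) covers 44.6% of its exons, so its level here is uncertain.

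**Figure D1:**
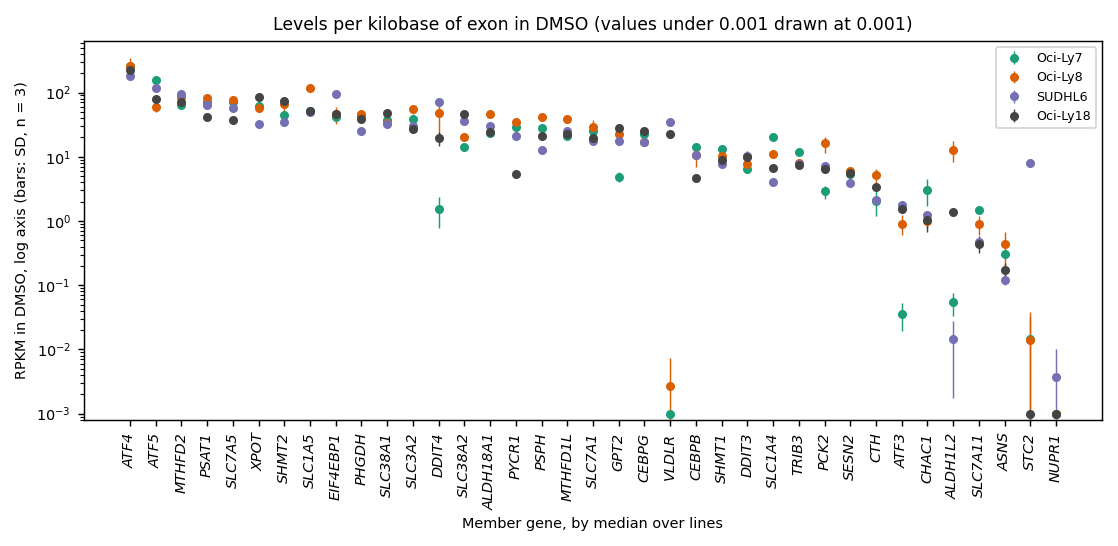
Level of each of the 37 members in DMSO, in RPKM on a log axis, with 1 point per line (mean of 3 libraries) and SD bars, ordered by the median over the 4 lines; values under 0.001 are drawn at 0.001. ATF4, ATF5 and MTHFD2 lead, while NUPR1, ASNS, STC2, VLDLR and ALDH1L2 include lines at or near 0.

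For 29 members RefSeq gives a promoter window of 250 bases before to 50 after a transcript start (build GRCh38.p14). The windows were searched on both strands for TGATGNAA, the composite site of a C/EBP protein and ATF4, and for CACGTG, the E-box that MYC and other bHLH-zipper proteins bind. The C/EBP-ATF letters occurred in 10 of the 29 members (34.5%), against 4.46% of 27305 genes with windows. The E-box letters occurred in 5 of 29 (17.2%), against 8.77% of all genes. A gene counts when any of its windows matches, and the 29 members have 48 windows against 35116 for the 27305 genes. The members were listed as genes of the ATF4 response and amino acid supply, so these shares are no test of the list. MTHFD1L, which makes formate in mitochondria, is the only member with both in 1 window, and the 2 motifs do not overlap there. Such matches are letters in a window and not evidence of binding. No window was found for PSPH, SHMT2, ALDH1L2, SLC7A11, NUPR1, PYCR1, GPT2 and EIF4EBP1. The upstream 250 bases of ATF4, SLC7A5 (a neutral amino acid transporter), MTHFD1L, CHAC1 and CEBPG are shown, since they hold the E-box, the E-box, both motifs, and for the last pair the C/EBP-ATF letters. The motif stands in capitals and each sequence reads 5′ to 3′ on the gene's strand.
ATF4, chr22:39520309-39520558, plus strand: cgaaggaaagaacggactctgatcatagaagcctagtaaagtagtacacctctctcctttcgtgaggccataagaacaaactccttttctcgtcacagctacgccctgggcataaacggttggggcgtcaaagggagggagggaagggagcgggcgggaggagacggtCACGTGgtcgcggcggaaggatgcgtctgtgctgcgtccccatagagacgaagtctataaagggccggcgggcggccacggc
SLC7A5, chr16:87869508-87869757, minus strand: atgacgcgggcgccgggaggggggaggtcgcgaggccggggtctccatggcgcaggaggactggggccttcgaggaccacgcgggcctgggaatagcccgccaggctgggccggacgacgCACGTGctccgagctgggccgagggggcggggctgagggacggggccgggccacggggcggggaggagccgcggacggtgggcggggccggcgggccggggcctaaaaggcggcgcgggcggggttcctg
MTHFD1L, chr6:150866236-150866485, plus strand: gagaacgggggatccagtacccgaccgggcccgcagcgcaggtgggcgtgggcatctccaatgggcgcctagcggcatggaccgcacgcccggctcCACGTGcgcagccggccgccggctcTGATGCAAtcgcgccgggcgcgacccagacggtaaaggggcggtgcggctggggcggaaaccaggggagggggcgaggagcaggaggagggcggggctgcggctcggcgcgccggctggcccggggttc
CHAC1, chr15:40953221-40953470, plus strand: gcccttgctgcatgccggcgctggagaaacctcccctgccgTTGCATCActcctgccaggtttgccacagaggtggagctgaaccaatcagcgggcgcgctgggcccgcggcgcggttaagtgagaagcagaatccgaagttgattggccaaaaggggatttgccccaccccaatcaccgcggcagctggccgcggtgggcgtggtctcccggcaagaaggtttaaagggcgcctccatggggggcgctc
CEBPG, chr19:33373863-33374112, plus strand: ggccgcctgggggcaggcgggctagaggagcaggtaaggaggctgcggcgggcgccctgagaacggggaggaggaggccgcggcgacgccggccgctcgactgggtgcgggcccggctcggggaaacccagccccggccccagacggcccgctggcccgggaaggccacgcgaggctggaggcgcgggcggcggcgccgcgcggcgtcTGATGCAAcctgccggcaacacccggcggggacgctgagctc

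With Combo, 21 of 36 tested members fell and 3 rose in the mean of the 4 lines (edgeR quasi-likelihood test, Benjamini-Hochberg adjusted p under 0.05 over all genes, which is the meaning of fell, rose and called throughout), while 20.7% of all tested genes fell and 25.7% rose. The median log2 fold change of the 31 members with at least 30 counts in a compared group of every line was -0.24, against 0.08 for all genes. Well-expressed genes fell more often in general: among the 5902 genes whose log2 CPM averaged 5 or more, a threshold chosen after seeing the data, 45.5% fell and 19.9% rose, and of the 26 members above it 19 fell and 2 rose. With DOT1Li, the median was -0.16, 17 members fell and 0 rose, where 5.19% and 5.08% of all genes did so, and among well-expressed genes 14 of 26 members fell and 0 rose where 12.5% and 5.61% of genes did. With EZH2i, 3 rose and 7 fell, where 15.7% and 12.5% of all genes did so, and the replicate-blocked fit gave 8 that rose. By role, with Combo 7 of 8 serine and one-carbon enzymes fell, 6 of 8 transporters fell and 1 rose, 3 of 6 other amino acid enzymes fell and 1 rose, 2 of 6 stress effectors fell, and of the 6 tested transcription factors and TRIB3, counted together as 7, 2 fell and 1 rose. With DOT1Li 5 serine and one-carbon enzymes, 6 transporters, 2 other enzymes, 2 transcription factors and 1 stress effector fell. XPOT, the only tRNA exporter listed, fell with every treatment in the mean of the 4 lines, but with DOT1Li it had no call in any single line. Its EZH2i mean of -0.12 lost its call without Oci-Ly8 DMSO replicate 2. With EZH2i it was called lower in Oci-Ly7 and Oci-Ly18 only, and its log2 fold change in Oci-Ly8 was 0.16. Within single lines, Combo gave 20 lower and 1 higher in Oci-Ly7 (12.2% and 17.7% of all genes), 10 and 5 in Oci-Ly8 (16.9% and 18.1%), 19 and 4 in SUDHL6 (16.8% and 22.6%) and 16 and 3 in Oci-Ly18 (14% and 21.1%). The Oci-Ly8 count of lower members was 6 without DMSO replicate 3, and 6 without both libraries low in long transcripts.

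**Figure D2:**
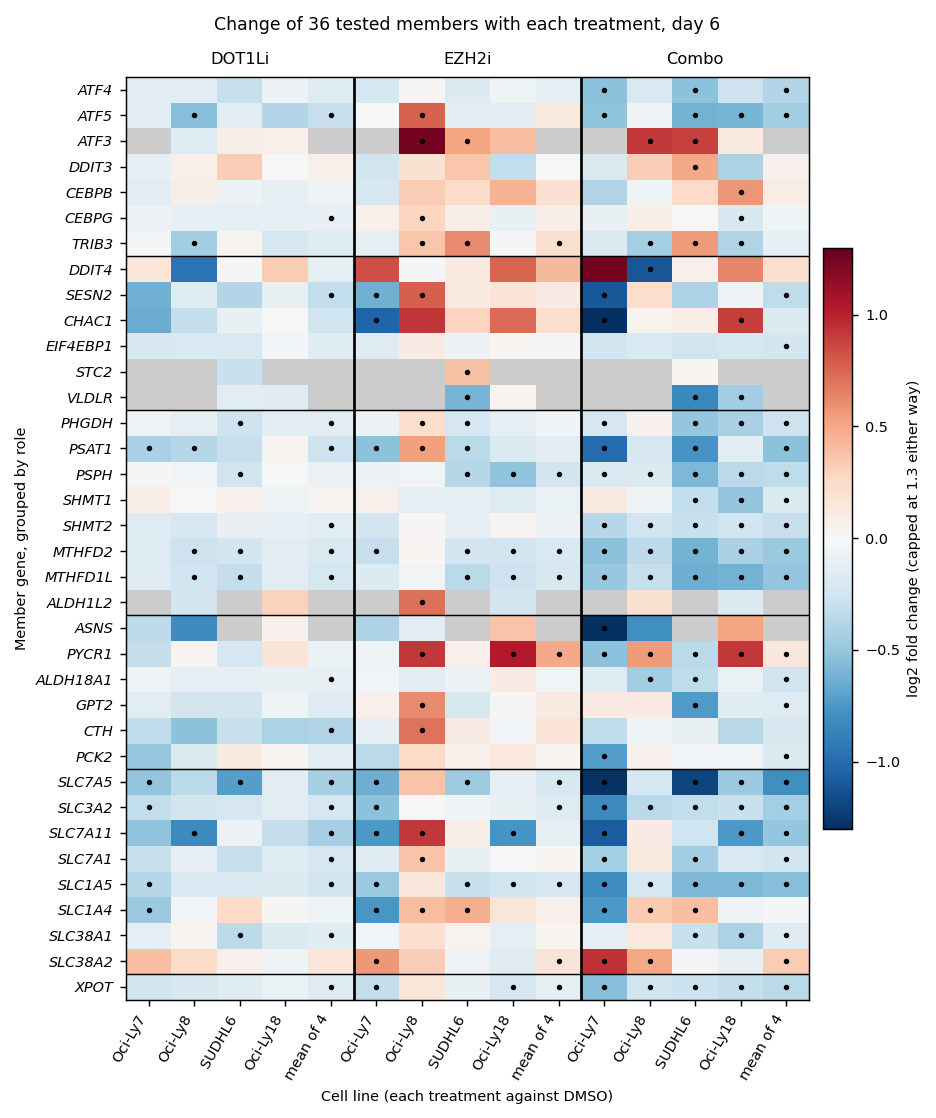
Log2 fold change of 36 tested members with DOT1Li, EZH2i and Combo against DMSO, in each line and as the mean of 4 lines, by role. Blue is lower and red higher than DMSO, dots mark called changes, and grey cells have fewer than 30 counts in both groups, or, for the mean, in any line; ATF3 is therefore grey for the Combo mean although it was called.

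Among the transcription factors, ATF4 itself fell with Combo. In Oci-Ly7 it was 475, 445 and 412 CPM in Combo against 707, 604 and 613 in DMSO, and in SUDHL6 315, 300.1 and 314 against 458, 432 and 451; the groups do not overlap in either line. In Oci-Ly18 they do not overlap either, with 427, 489 and 477 CPM in Combo and 503, 589 and 589.9 in DMSO. In Oci-Ly8 they do overlap, with 575, 571 and 587 in Combo and 536, 569 and 879.9 in DMSO, of which the third DMSO library is the one with few long-transcript counts. The mean log2 fold change was -0.38, SE 0.06, adjusted p = 1.85e-06, and this difference was called in Oci-Ly7 and SUDHL6 but not in the other lines. ATF5, a related bZIP factor tied to the mitochondrial stress response, fell with Combo in Oci-Ly7, SUDHL6 and Oci-Ly18, with a mean of -0.45, SE 0.06, adjusted p = 6.15e-08. In Oci-Ly18 ATF5 was 144, 154 and 154 CPM in Combo against 215, 226 and 248 in DMSO. The values were 371, 302 and 294 CPM in Oci-Ly7 Combo against 507, 457 and 423 in DMSO and 223, 230.0 and 223 CPM in SUDHL6 Combo against 325, 335 and 373 in DMSO, and no Combo library of these 3 lines reached its DMSO range. Of its exons, 21.2% overlap NUP62 on the opposite strand, and no source used here says whether counting used the strand.

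In Oci-Ly8, EZH2i gave higher ATF5 and DOT1Li lower. ATF5 was 326, 277 and 280.0 CPM with EZH2i, 128, 105 and 120.4 with DOT1Li, 185, 156 and 156 with Combo and 187, 140.1 and 192 in DMSO. The EZH2i libraries sit above all the others, the DOT1Li libraries below all of DMSO, and Combo overlaps DMSO (EZH2i 0.77, SE 0.12, adjusted p = 1.32e-05, DOT1Li -0.55, SE 0.13, adjusted p = 0.0044). The DOT1Li call was lost without DOT1Li replicate 2 in that line (adjusted p 0.0569). ATF3, an early stress factor of the same family, rose with Combo in Oci-Ly8 and SUDHL6. In SUDHL6 it had 12.5, 13.5 and 13.4 CPM in Combo against 6.49, 7.51 and 7.22 in DMSO, and in Oci-Ly8 6.69, 7.21 and 6.98 against 5.12, 2.97 and 2.92. The Oci-Ly18 groups overlapped, at 5.82, 6.20 and 8.03 CPM in Oci-Ly18 Combo against 5.22, 6.605 and 6.52 in DMSO. Its mean of 0.70, SE 0.19, adjusted p = 0.00207 includes Oci-Ly7, where Combo had 14 and DMSO 7 counts over 3 libraries.

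The factors that pair with ATF4 had small or line-restricted changes. CEBPG, a usual partner, fell with DOT1Li by a mean of -0.10, SE 0.03, adjusted p = 0.0412, a call lost on leaving out any 1 of 16 libraries, and rose with EZH2i in Oci-Ly8 only, where it was 92.8, 91.6 and 90.03 CPM with EZH2i against 78.6, 75.1 and 71.7 in DMSO. With Combo it fell in Oci-Ly18 (-0.21, SE 0.07, adjusted p = 0.0134), and leaving out either of 2 libraries ended that call. CEBPB, another bZIP partner, had called changes in Oci-Ly18 only, where it rose with Combo (0.58, SE 0.20, adjusted p = 0.0216; highest adjusted p without a library 0.103). DDIT3, the death-linked factor CHOP, rose with Combo in SUDHL6 (0.49, SE 0.18, adjusted p = 0.027), a call lost on leaving out any 1 of 3 libraries. Of its exons, 27.2% overlap MARS1 on the opposite strand. TRIB3, a pseudokinase that feeds back on ATF4, moved in opposite directions. It was 45.3, 36.97 and 34.8 CPM in SUDHL6 Combo against 27.7, 25.4 and 26.6 in DMSO (0.56, SE 0.12, adjusted p = 0.000138), but 21.8, 17.8 and 20.9 in Oci-Ly8 Combo against 27.1, 23.2 and 31.8 (-0.44, SE 0.13, adjusted p = 0.00587). It also fell in Oci-Ly18 (-0.39, SE 0.13, adjusted p = 0.0136). Leaving out either of 2 libraries ended the Oci-Ly8 call (adjusted p up to 0.0705), and DMSO replicate 3 or Combo replicate 3 the Oci-Ly18 call (up to 0.0617).

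SESN2 (Sestrin2), a leucine sensor that restrains mTORC1, fell with Combo in Oci-Ly7, to 8.80, 7.201 and 9.40 CPM against 25.1, 14.5 and 15.6 in DMSO, with no overlap (-1.11, SE 0.19, adjusted p = 1.15e-05). Elsewhere it was 26.6, 22.6 and 23.3 CPM in Oci-Ly8 Combo against 21.9, 19.9 and 19.8 in DMSO, 11.1, 9.35 and 10.02 CPM in SUDHL6 Combo against 14.6, 12.8 and 12.9 in DMSO and 18.1, 19.5 and 18.5 CPM in Oci-Ly18 Combo against 18.1, 18.9 and 20.96 in DMSO, with a mean of -0.33, SE 0.09, adjusted p = 0.00267. With EZH2i it fell in Oci-Ly7 (-0.63, SE 0.18, adjusted p = 0.0148) and rose in Oci-Ly8 (0.78, SE 0.17, adjusted p = 0.000961), where it was 39.2, 32.2 and 34.6 CPM with EZH2i against 21.9, 19.9 and 19.8 in DMSO. The Oci-Ly7 EZH2i call was lost without DMSO replicate 1 or either of 2 EZH2i replicates (adjusted p up to 0.255). CHAC1, which degrades glutathione, fell in Oci-Ly7 with Combo, to 2.20, 1.48 and 1.71 CPM against 9.45, 3.84 and 5.73 in DMSO (-1.79, SE 0.32, adjusted p = 2.63e-05), although the 3 DMSO libraries of that line themselves spread widely. In Oci-Ly18 it rose (0.90, SE 0.35, adjusted p = 0.0418, up to 0.201 without a library). DDIT4 (REDD1), an mTORC1 inhibitor, had 50.3, 44.01 and 43.7 CPM in Oci-Ly8 Combo against 135, 32.1 and 133 in DMSO. Its log2 fold change of -1.12 was called, but not without DMSO replicate 1 or 3, and the second DMSO library lies below the Combo range.

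VLDLR fell with Combo in SUDHL6, to 173, 172 and 195 CPM against 315, 332 and 318 in DMSO (-0.84, SE 0.08, adjusted p = 4.5e-11), and in Oci-Ly18 (-0.45, SE 0.08, adjusted p = 2.33e-05). In Oci-Ly8 it had 9 counts over the 3 Combo libraries against 1 in DMSO, a ratio of 9.40 (95% interval 1.302 to 412, covering counting error only), so the called rise there rests on those few counts. EIF4EBP1, the translation repressor 4E-BP1, fell with Combo by a mean of -0.24, SE 0.06, adjusted p = 0.00121 without a call in any single line. Its levels were 36.5, 34.97 and 39.4 CPM in Oci-Ly7 Combo against 48.5, 38.9 and 46.02 in DMSO, 40.1, 43.5 and 45.4 CPM in Oci-Ly8 Combo against 41.7, 41.1 and 66.2 in DMSO, 87.8, 85.4 and 78.3 CPM in SUDHL6 Combo against 101, 98.8 and 101 in DMSO and 41.3, 41.9 and 44.2 CPM in Oci-Ly18 Combo against 46.2, 51.5 and 51.8 in DMSO. STC2 rose with EZH2i in SUDHL6, the 1 line that expresses it (0.38, SE 0.12, adjusted p = 0.016), a call lost on leaving out any 1 of 4 libraries.

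Of the 8 serine and one-carbon enzymes 7 fell with Combo in the mean of the 4 lines, and 4 of them (PSPH, SHMT2, MTHFD2 and MTHFD1L) in every line. MTHFD2, which feeds one-carbon units in mitochondria, was 217, 208 and 219 CPM in Oci-Ly7 Combo against 352, 295 and 287 in DMSO. In Oci-Ly8 it was 333, 318 and 317 in Combo against 423, 396 and 409, in SUDHL6 304, 289 and 317 against 465, 464 and 460.5, and in Oci-Ly18 258, 257 and 254 against 319, 354 and 357. In each line every Combo library lay under every DMSO library. The mean log2 fold change was -0.48, SE 0.04, adjusted p = 1.64e-15, and it was called in all 4 lines. Of its exons, 27.2% overlap SLC4A5 on the opposite strand. MTHFD1L, shown above with both motifs, had 73.4, 76.1 and 72.3 CPM in Oci-Ly18 Combo against 111, 115 and 113 in DMSO, and 74.7, 80.4 and 88.7 against 133, 119 and 128 in SUDHL6. The other lines had 80.5, 72.6 and 73.97 CPM in Oci-Ly7 Combo against 112, 103 and 105 in DMSO and 164, 161 and 148 CPM in Oci-Ly8 Combo against 187, 200.4 and 195 in DMSO, so no line overlapped. Its mean was -0.51, SE 0.04, adjusted p = 2.94e-15, again called in all 4 lines. Leaving out any 1 library ended none of these 8 calls for MTHFD2 and MTHFD1L.

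PSPH, the last step of serine synthesis, fell in all 4 lines with Combo, with a mean of -0.33, SE 0.03, adjusted p = 5.01e-12. In SUDHL6 it was 24.5, 21.98 and 24.6 CPM in Combo against 35.6, 34.1 and 36.8 in DMSO. It was 70.4, 66.9 and 67.6 CPM in Oci-Ly7 Combo against 76.6, 80.02 and 78.2 in DMSO, 100.02, 105 and 96.9 CPM in Oci-Ly8 Combo against 107, 116 and 122 in DMSO and 45.5, 47.4 and 43.3 CPM in Oci-Ly18 Combo against 55.7, 55.5 and 61.6 in DMSO. The smaller Oci-Ly7 and Oci-Ly8 changes (-0.20 and -0.19) lost their call without some single libraries. PHGDH, the first step, and PSAT1, the second, fell on average with means of -0.27, SE 0.04, adjusted p = 2.67e-07 and -0.53, SE 0.06, adjusted p = 4.44e-10. PSAT1 had its largest fall in Oci-Ly7, to 83.95, 71.8 and 78.99 CPM with Combo against 193, 139 and 138 in DMSO (-1.003, SE 0.12, adjusted p = 4.8e-09). SHMT1 and SHMT2, which turn serine into glycine in the cytosol and the mitochondrion, fell by means of -0.19, SE 0.04, adjusted p = 0.000274 and -0.30, SE 0.04, adjusted p = 9.26e-08. SHMT1 was called only in SUDHL6 and Oci-Ly18. ALDH1L2 passed in no line with Combo, and in Oci-Ly8 it rose with EZH2i (0.72, SE 0.17, adjusted p = 0.0022).

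**Figure D3:**
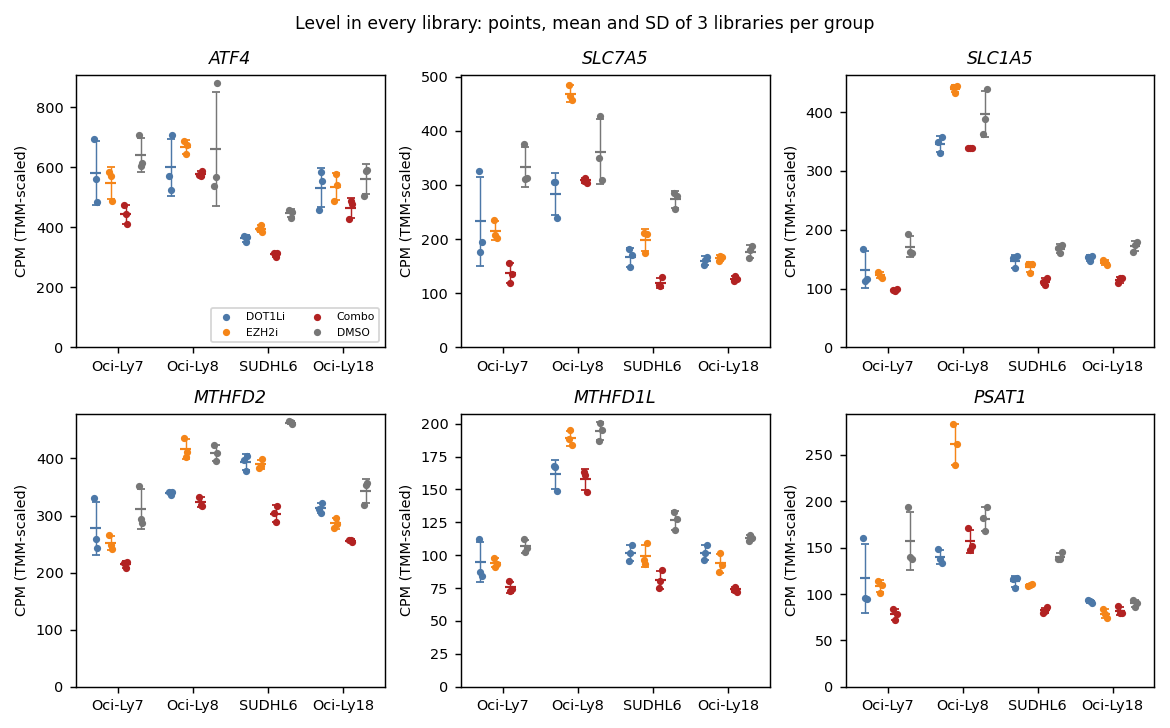
Level of ATF4, SLC7A5, SLC1A5, MTHFD2, MTHFD1L and PSAT1 in every library, in CPM, by line, with DOT1Li, EZH2i, Combo and DMSO side by side and mean ± SD of 3 libraries. MTHFD2 and MTHFD1L in Combo lie under DMSO in all 4 lines, while PSAT1 with EZH2i lies above DMSO in Oci-Ly8 and under it in Oci-Ly7 and SUDHL6.

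The other amino acid enzymes split. ALDH18A1, which makes the proline precursor, fell with Combo in Oci-Ly8, to 117, 132 and 128 CPM against 164, 179 and 173 in DMSO, and in SUDHL6, with a mean of -0.26, SE 0.03, adjusted p = 5.1e-09. Its levels were 90.6, 86.02 and 98.5 CPM in SUDHL6 Combo against 111, 112 and 122.7 in DMSO, 84.1, 77.7 and 76.1 CPM in Oci-Ly7 Combo against 94.4, 83.9 and 86.6 in DMSO and 87.2, 84.4 and 86.9 CPM in Oci-Ly18 Combo against 90.6, 96.7 and 87.7 in DMSO. PYCR1, the next enzyme of proline synthesis, rose with EZH2i in Oci-Ly8 and Oci-Ly18. In Oci-Ly8 it was 179, 184 and 202 CPM with EZH2i and 155, 135 and 148 with Combo against 96.1, 101 and 102 in DMSO. In Oci-Ly18 it was 31.1, 32.97 and 30.8 with EZH2i and 24.01, 32.8 and 31.3 with Combo against 15.6, 15.3 and 15.6. In those lines every EZH2i and Combo library lay above DMSO (0.92, SE 0.12, adjusted p = 2.34e-08 with Combo in Oci-Ly18). In Oci-Ly7 and SUDHL6 PYCR1 fell with Combo, to 66.6, 52.7 and 53.9 CPM in Oci-Ly7 Combo against 94.7, 74.7 and 81.5 in DMSO and 46.9, 45.3 and 48.4 CPM in SUDHL6 Combo against 63.4, 54.7 and 61.2 in DMSO (-0.53, SE 0.10, adjusted p = 3.36e-05 and -0.35, SE 0.10, adjusted p = 0.00475), so its small Combo mean of 0.15 (adjusted p 0.0184) joins opposite directions, and it lost its call on leaving out either of 2 libraries and was -0.11 without Oci-Ly18. GPT2, a mitochondrial transaminase, was called lower with Combo in SUDHL6, at 66.9, 62.3 and 69.7 CPM in SUDHL6 Combo against 112, 103 and 116 in DMSO (-0.74, SE 0.12, adjusted p = 4.57e-06). It had 33.7, 34.1 and 33.1 CPM in Oci-Ly7 Combo against 37.9, 27.8 and 28.1 in DMSO, 164, 148 and 151 CPM in Oci-Ly8 Combo against 172, 116 and 143 in DMSO and 162, 158 and 155 CPM in Oci-Ly18 Combo against 183, 179 and 169.9 in DMSO, and its mean was 0.018 without that line; it rose with EZH2i in Oci-Ly8 (0.61, SE 0.12, adjusted p = 0.000224). PCK2, which makes phosphoenolpyruvate in mitochondria, fell in Oci-Ly7 (-0.72, SE 0.17, adjusted p = 0.000861), and its Combo mean lost its call on leaving out any 1 of 8 libraries. ASNS fell in Oci-Ly7 (-1.31, SE 0.45, adjusted p = 0.0226), at 0.282, 0.9 and 0.473 CPM in Combo against 1.53, 1.32 and 1.21 in DMSO, and its adjusted p was up to 0.131 when 1 library was left out. CTH, which makes cysteine from cystathionine, had no called change with Combo; with DOT1Li it fell (-0.39, SE 0.11, adjusted p = 0.0119), a call lost without Oci-Ly7 DMSO replicate 1.

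Among the transporters, SLC7A5 (LAT1, the main leucine carrier) had the lowest mean Combo log2 fold change of the members. In Oci-Ly7 it was 156, 119 and 135 CPM with Combo, 235, 207 and 203 with EZH2i and 326, 177 and 194 with DOT1Li, against 375, 312 and 312 in DMSO. In SUDHL6 it was 116, 113 and 129.99 with Combo and 182, 148 and 170.1 with DOT1Li against 285, 255 and 279.8, so every Combo library lay below every DOT1Li and DMSO library of its line. The mean log2 fold change with Combo was -0.80, SE 0.07, adjusted p = 2.61e-12, with -1.28 in Oci-Ly7 and -1.19 in SUDHL6, and in Oci-Ly8 its Combo libraries (308, 313 and 304) overlapped those of DMSO (349, 427 and 308). In Oci-Ly18 it was 123.0, 132 and 126 CPM in Oci-Ly18 Combo against 164, 180.4 and 187 in DMSO. SLC3A2, the heavy chain that carries LAT1 to the membrane, fell in all 4 lines, with a mean of -0.45, SE 0.04, adjusted p = 6.23e-12. It was 117, 101 and 116 CPM in Oci-Ly7 Combo against 205, 194 and 196 in DMSO, 222, 223 and 225 CPM in Oci-Ly8 Combo against 235, 293 and 328 in DMSO, 124, 124 and 131 CPM in SUDHL6 Combo against 156, 152 and 165 in DMSO and 114, 118 and 114 CPM in Oci-Ly18 Combo against 127, 150.3 and 146 in DMSO. SLC1A5 (ASCT2), the main glutamine carrier, fell in all 4 lines too (-0.55, SE 0.04, adjusted p = 7.69e-15), with 23.4% of its exons shared with an opposite-strand transcript, ENSG00000275719. It had 98.4, 95.9 and 98.98 CPM in Oci-Ly7 Combo against 193, 162 and 159.8 in DMSO, 339, 338 and 339.6 CPM in Oci-Ly8 Combo against 363, 387 and 439 in DMSO, 111, 106 and 119 CPM in SUDHL6 Combo against 168, 161 and 175 in DMSO and 109.6, 118 and 117 CPM in Oci-Ly18 Combo against 163, 174 and 179 in DMSO.

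The remaining transporters differed in direction. SLC7A11 (xCT), the cystine carrier that feeds glutathione synthesis, was low in DMSO and fell with Combo in Oci-Ly7 (-1.08, SE 0.20, adjusted p = 2.22e-05). It also fell with Combo by the mean of the 4 lines (-0.50, adjusted p = 0.000378) and in Oci-Ly18 (-0.75, adjusted p = 0.0282). Leaving out any 1 of 4 libraries ended that Oci-Ly18 Combo call. With EZH2i it fell in Oci-Ly7 (-0.75) and Oci-Ly18 (-0.76) and rose in Oci-Ly8 (0.92, SE 0.20, adjusted p = 0.000693); leaving out any 1 of 5 libraries ended the Oci-Ly18 call. In Oci-Ly8 it was 17.1, 14.6 and 16.95 CPM with EZH2i against 11.49, 6.08 and 8.24 in DMSO. SLC1A4, a neutral amino acid carrier, was the 1 member whose DOT1Li effect differed between lines in the main fit (5.14% of all tested genes). That count ran from 0 to 6 on leaving out single libraries, and was larger with the replicate block or with no filter. SLC1A4 fell with DOT1Li in Oci-Ly7 (-0.49, SE 0.11, adjusted p = 0.00846) and had no call in the other lines. Leaving out DMSO replicate 1, DOT1Li replicate 2 or DOT1Li replicate 3 ended the Oci-Ly7 call. With Combo it fell in Oci-Ly7, to 81.5, 87.5 and 79.5 CPM against 149, 138 and 131 in DMSO, and rose in Oci-Ly8 and SUDHL6, at 103, 96.1 and 95.5 CPM in Oci-Ly8 Combo against 87.8, 74.1 and 71.5 in DMSO and 37.4, 35.6 and 37.7 CPM in SUDHL6 Combo against 27.5, 25.9 and 31.2 in DMSO (0.39, SE 0.13, adjusted p = 0.0119 in SUDHL6), and the mean without Oci-Ly7 was 0.23. The SUDHL6 rise was lost without DMSO replicate 2 (adjusted p 0.067) and the Oci-Ly8 rise without any 1 of 3 libraries (up to 0.113). SLC38A2 (SNAT2), an inducible glutamine and alanine carrier, rose with Combo in Oci-Ly7 and Oci-Ly8 and had no call in the other lines. In Oci-Ly7 it was 158, 179 and 206 CPM with Combo and 142, 136 and 138 with EZH2i against 91.4, 83.7 and 107 in DMSO. Its Combo log2 fold change was 0.94 in Oci-Ly7, 0.50 in Oci-Ly8, -0.03 in SUDHL6, -0.10 in Oci-Ly18 and 0.33, SE 0.06, adjusted p = 8.69e-06 on average. SLC38A1 and SLC7A1 (the cationic amino acid carrier) fell modestly, with Combo means of -0.17 and -0.24. XPOT, the exporter of tRNAs from the nucleus, fell with Combo in all 4 lines, with a log2 fold change of -0.56 in Oci-Ly7, -0.26 in Oci-Ly8, -0.28 in SUDHL6 and -0.31 in Oci-Ly18. It had 314, 283 and 313 CPM in Oci-Ly7 Combo against 479, 439 and 419.8 in DMSO, 361, 353 and 344 CPM in Oci-Ly8 Combo against 435, 471 and 364 in DMSO, 207, 189.8 and 199 CPM in SUDHL6 Combo against 247, 242 and 236 in DMSO and 489, 496 and 507 CPM in Oci-Ly18 Combo against 585, 646 and 619 in DMSO.

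With Combo, 7 members fell in each of the 4 lines (PSPH, SHMT2, MTHFD2, MTHFD1L, SLC3A2, SLC1A5 and XPOT), and 14 members had a log2 fold change below zero in all 4. Of the 7, SHMT2, PSPH, SLC3A2, SLC1A5 and XPOT lost a call in at least 1 line when a single library was left out. The Combo effect differed between lines for 26 of the 36 members (43.8% of all tested genes), with TRIB3, CHAC1, SLC1A4, PYCR1 and VLDLR called in both directions. In single lines between 12.2% and 16.9% of all genes fell with Combo. The shares of all genes that fell in all 4 lines, lay below zero in all 4 or were called in both directions were not computed. Whether these member counts are unusual is therefore not known. DOT1Li alone called lower 5 members in Oci-Ly7 (1.17% of all genes lower), 6 in Oci-Ly8 (2.73%), 6 in SUDHL6 (2.11%) and 0 in Oci-Ly18 (2.12%), with 0 higher in any, where 1.72% of all genes rose in Oci-Ly7, 3.53% in Oci-Ly8, 2.76% in SUDHL6 and 4.03% in Oci-Ly18. The Oci-Ly7 count was 14 without DOT1Li replicate 1 and 0 without DMSO replicate 1, DOT1Li replicate 2 or DOT1Li replicate 3. The Oci-Ly8 count was 0 without DOT1Li replicate 2 and 3 without DOT1Li replicate 1, and the SUDHL6 count was between 1 and 3 on leaving out each of its 6 DOT1Li and DMSO libraries. The replicate-blocked fit, used where every same-numbered pair with DMSO deviated together, gave 13 lower in Oci-Ly8, 13 in SUDHL6 and 1 in Oci-Ly18, with 1 higher in Oci-Ly8. It also gave more lower members in Oci-Ly7, as listed with the other settings below. Without the 2 Oci-Ly8 libraries low in long transcripts the Oci-Ly8 count was 1.

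By the mean of the 4 lines, the members that fell with DOT1Li were mainly supply genes. Among the transporters, SLC7A5 (-0.43, SE 0.07, adjusted p = 2.82e-05), SLC7A11 (-0.43, SE 0.12, adjusted p = 0.0114), SLC1A5 (-0.24), SLC3A2 (-0.23), SLC7A1 (-0.21) and SLC38A1 (-0.16) fell. Among the serine and one-carbon enzymes, PSAT1 (-0.27), MTHFD1L (-0.22, SE 0.04, adjusted p = 5.91e-05), MTHFD2 (-0.20), PHGDH (-0.15) and SHMT2 (-0.15) did, and PSPH, SHMT1 and ALDH1L2 did not pass. The calls of ALDH18A1 (-0.10), CEBPG, CTH, SESN2 (-0.32) and SLC38A1 were lost on leaving out at least 1 library. ATF4 itself did not pass with DOT1Li (-0.17, SE 0.06, adjusted p = 0.0813) or with EZH2i (-0.11, SE 0.06, adjusted p = 0.178). In SUDHL6 ATF4 had 372, 350.3 and 368 CPM with DOT1Li and 394, 408 and 384 with EZH2i, both below the DMSO values given above.

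With EZH2i every call among the members was higher in Oci-Ly8, and most were lower in the other lines. In Oci-Ly8, 14 members rose and 0 fell (9.04% and 7.94% of all genes), in SUDHL6 4 rose and 8 fell (14% and 8.67%), in Oci-Ly7 1 rose and 10 fell (8.78% and 4.92%) and in Oci-Ly18 1 rose and 6 fell (13% and 9.04%). Those that rose in Oci-Ly8 were ATF5, ATF3, CEBPG, TRIB3, SESN2, PHGDH, PSAT1, ALDH1L2, PYCR1, GPT2, CTH, SLC7A11, SLC7A1 and SLC1A4, with log2 fold changes between 0.23 and 1.25, and 10 of these calls held on leaving out each library in turn. The SUDHL6 counts were 2 higher without DMSO replicate 1 or EZH2i replicate 3, 4 lower without EZH2i replicate 2 and 5 lower without DMSO replicate 3, and the Oci-Ly18 count was 3 lower without DMSO replicate 2, DMSO replicate 3 or EZH2i replicate 1. With the replicate block 5 rose in Oci-Ly18 and 1 fell in Oci-Ly8. The effect of EZH2i differed between lines for 20 of 36 members, where 24% of all genes did. The clearest was PYCR1, with 0.92 in Oci-Ly8 and 1.03 in Oci-Ly18 against -0.06 in Oci-Ly7 and 0.07 in SUDHL6. PSAT1 fell with EZH2i in Oci-Ly7, at 115, 101 and 109 CPM in Oci-Ly7 EZH2i against 193, 139 and 138 in DMSO, and in SUDHL6, at 108, 109.6 and 111 CPM in SUDHL6 EZH2i against 138, 138 and 145 in DMSO, and rose in Oci-Ly8, where it was 284, 239.6 and 262 CPM with EZH2i against 182, 168 and 194 in DMSO (0.53, SE 0.11, adjusted p = 0.000814). PHGDH rose in Oci-Ly8, at 522, 481 and 517 CPM in Oci-Ly8 EZH2i against 413, 392 and 495 in DMSO (0.23, SE 0.08, adjusted p = 0.0457), and fell in SUDHL6, at 194, 191 and 205 CPM in SUDHL6 EZH2i against 222, 229.8 and 234 in DMSO (-0.22, SE 0.08, adjusted p = 0.0475). The Oci-Ly8 groups overlap, the SUDHL6 groups do not, and both calls were lost without some single libraries, with adjusted p up to 0.208 and 0.147. SLC1A4 with EZH2i fell in Oci-Ly7, at 81.2, 81.3 and 85.6 CPM in Oci-Ly7 EZH2i against 149, 138 and 131 in DMSO, and rose in Oci-Ly8 and SUDHL6, at 104, 100.2 and 103 CPM in Oci-Ly8 EZH2i against 87.8, 74.1 and 71.5 in DMSO and 41.9, 34.2 and 41.1 CPM in SUDHL6 EZH2i against 27.5, 25.9 and 31.2 in DMSO. SLC7A5 had no call in Oci-Ly8, where it had 485, 465 and 456 CPM with EZH2i against 349, 427 and 308 in DMSO (log2 fold change 0.37, adjusted p 0.0508).

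**Figure D4:**
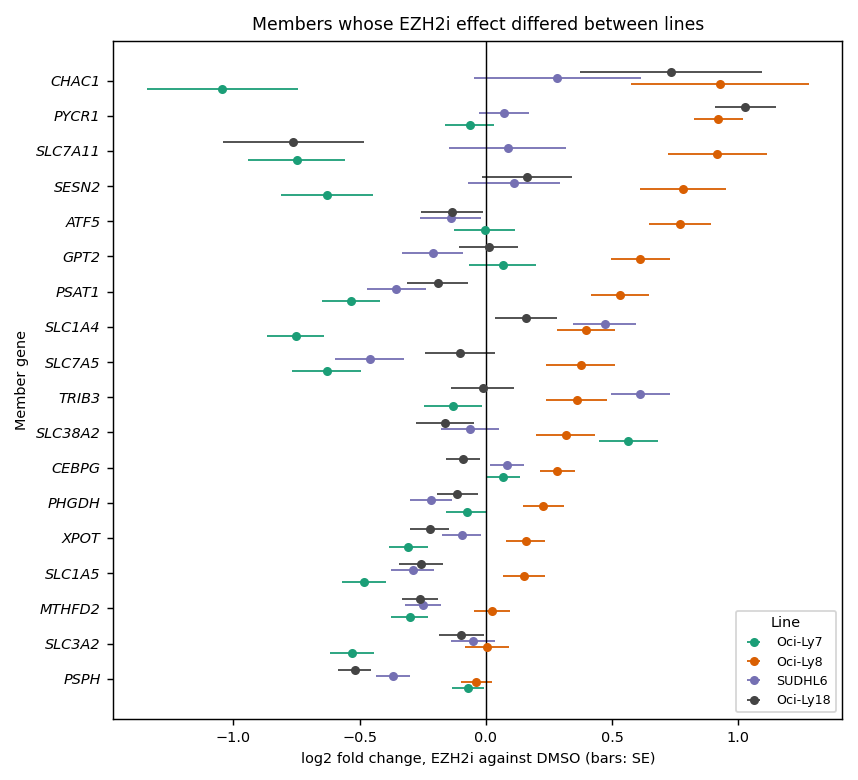
Log2 fold change with EZH2i against DMSO (SE bars) in each line, for the 18 of 20 members whose EZH2i effect differed between lines and that had at least 30 counts in a group in every line. Oci-Ly8 lies furthest right for most genes, the exceptions being PYCR1, SLC38A2, TRIB3 and SLC1A4.

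**Figure D5:**
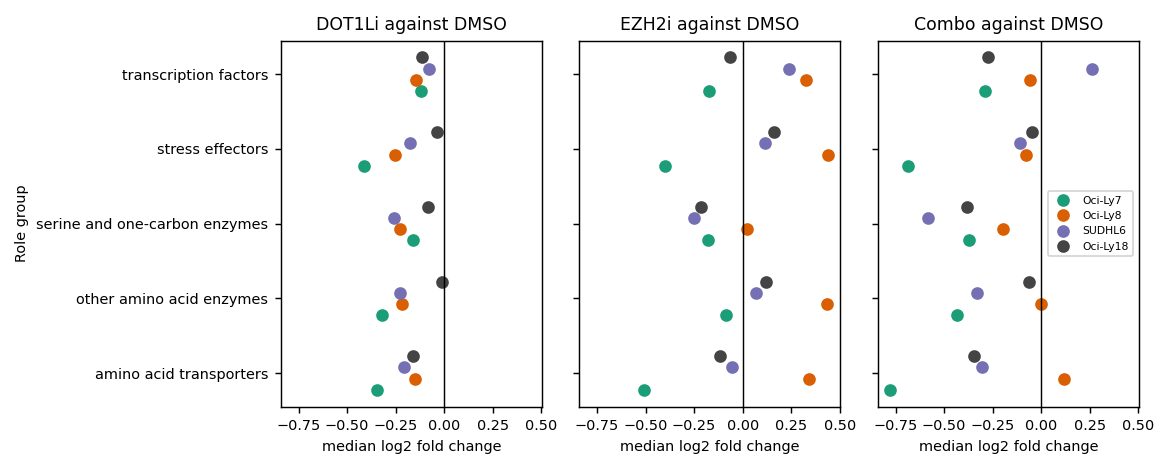
Median log2 fold change of the members of each role in each line, with DOT1Li, EZH2i and Combo against DMSO, over members with at least 30 counts in a group; XPOT, alone in its role, is not drawn. DOT1Li medians lie below zero in every role and line, Combo medians do so except for transcription factors (counted with TRIB3) in SUDHL6 and transporters and other enzymes in Oci-Ly8, and EZH2i medians in Oci-Ly8 lie above zero in every role.

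The design allows the combination to be set against each inhibitor alone, in the mean of the 4 lines. Combo was lower than DOT1Li for 13 members and higher for 3 (15.8% and 19.4% of all genes). The 3 higher ones were ATF3, PYCR1 and SLC38A2, and the lower ones include 7 of 8 serine and one-carbon enzymes. Against EZH2i, Combo was lower for 23 members and higher for 1, SLC38A2 (12.2% and 12.8% of all genes), a higher call lost on leaving out any 1 of 6 libraries, with the largest differences in SLC7A5 (-0.59, SE 0.07, adjusted p = 2.53e-08) and ATF5 (-0.57, SE 0.06, adjusted p = 2.66e-09). For a departure of the combined effect from the sum of the single effects on the log2 scale, 0 of 36 members were called by edgeR and 0 by DESeq2, where edgeR called 0.0225% higher and 0.0282% lower among all genes, and 4 members had an unadjusted p under 0.05. The fit with no filter on low counts and the replicate-blocked fit each called 2 members lower. The estimate was below zero for 30 of the 36, with a median of -0.08 against -0.0004 for all genes. The nearest were PYCR1 (-0.26, SE 0.07, adjusted p = 0.229) and ATF5 (-0.27, SE 0.09, adjusted p = 0.402). Departures of that size did not pass with 3 libraries per group.

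Genes that work beside the members were read in the same fits, as counts with no test of the lists. Of all tested genes 25.7% rose and 20.7% fell with Combo in the mean of the 4 lines (45.5% of well-expressed genes fell), 5.08% and 5.19% did so with DOT1Li, and 15.7% and 12.5% with EZH2i. All 13 aminoacyl-tRNA synthetases tested fell with Combo and with DOT1Li in the mean of the 4 lines, and with EZH2i 11 fell and 1 rose. By line, Combo gave 12 that fell in Oci-Ly7, 9 in Oci-Ly8, 12 in SUDHL6 and 10 in Oci-Ly18. DOT1Li gave 2, 6, 7 and 0 in the same order. With EZH2i 9 fell in Oci-Ly7, 10 in SUDHL6 and 5 in Oci-Ly18, but in Oci-Ly8 0 fell and 1 rose (median log2 fold change 0.06). GARS1 (-0.61, SE 0.04, adjusted p = 3.55e-19), MARS1 and YARS1 had the smallest adjusted p with Combo, at -0.50 and -0.51 for the last pair. Of 16 genes of the unfolded protein response, mostly chaperones and folding enzymes, 12 fell with Combo and 12 with DOT1Li, whereas EZH2i gave 2 that rose and 1 that fell. The lines differed: with Combo 11 fell in Oci-Ly7 and 11 in SUDHL6, with 1 that rose in each, but 4 fell and 2 rose in Oci-Ly8 (median log2 fold change 0.05) and 2 fell and 2 rose in Oci-Ly18 (median 0.07). With EZH2i 9 rose and 0 fell in Oci-Ly8 (median 0.25), 0 rose and 7 fell in Oci-Ly7 (median -0.24), 4 rose and 1 fell in Oci-Ly18, and 1 rose and 3 fell in SUDHL6. With Combo HSPA5 (BiP) fell (-0.30, SE 0.05, adjusted p = 1.38e-06), as did CALR (-0.32, SE 0.03, adjusted p = 5.79e-11) and SDF2L1 (-0.47, SE 0.07, adjusted p = 7.78e-07). Of 8 genes for eIF2alpha, its kinases and its phosphatase, 3 rose and 2 fell with Combo, and of these EIF2AK4 (GCN2, the amino acid sensing kinase) rose (0.35, SE 0.06, adjusted p = 1.4e-06), while EIF2S1, eIF2alpha itself, fell (-0.37, SE 0.04, adjusted p = 2.35e-12), as did the phosphatase subunit PPP1CA (-0.19, SE 0.04, adjusted p = 7.54e-05). Folate and glutamine enzymes gave 3 that rose and 4 that fell with Combo among 14, shares close to those of all genes, with GOT2, a mitochondrial transaminase, among the falls (-0.46, SE 0.03, adjusted p = 3.34e-17) and GLDC, of the glycine cleavage system, among the rises (1.49, SE 0.23, adjusted p = 5.67e-07). Of 11 tested mTORC1 sensing genes 6 rose and 2 fell with Combo, with CASTOR2, a paralogue of the arginine sensor CASTOR1 (0.41, SE 0.05, adjusted p = 3.32e-09), SESN3 (0.63, SE 0.09, adjusted p = 5.59e-07) and RRAGD (0.31, SE 0.05, adjusted p = 8.14e-07) among the rises.

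The motif content of the promoters can be set beside these changes. All 5 members with the E-box letters in a window (ATF4, SLC7A5, MTHFD1L, ALDH18A1 and SLC1A5) fell with Combo in the mean of the 4 lines, and 11 of the 24 members without them did. Those 5 averaged 6.76 to 9.02 log2 CPM. With Combo 20.7% of all tested genes fell, and 45.5% of those averaging 5 or more. The share that fell among all genes with the E-box letters was not computed. Of the 10 members with the C/EBP-ATF letters 5 fell and 1 rose, and of the 19 without them 11 fell and 1 rose. These counts are given without a test, since the members were chosen for their function.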

How the data were processed

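Total RNA was sequenced from 48 libraries of 4 lymphoma lines. The deposited table holds raw gene counts, whole numbers for 37706 genes. Per the submitters' processing notes, STAR, DESeq2 and the GRCh38 (hg38) build were used. No source used here names the counting program or its strand setting. Library totals were 5174269 to 18845074 counts, so genes with few counts are least precise, and intervals cover counting error only.

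The counts were fitted with edgeR 4.0.16 in R 4.3.3 (filterByExpr, TMM scaling, 16 group means, quasi-likelihood test, 32 residual degrees of freedom, Benjamini-Hochberg adjustment over 17749 genes, calls at 0.05). The mean of 4 lines averages the 4 within-line contrasts. SE is the log2 fold change divided by the square root of F. RPKM uses union exon lengths. DESeq2 1.42.0, other scalings and filters, each line alone, a replicate block and leaving out each library or line were alternatives. Same-numbered libraries deviated together (correlation over 0.1) in 67 of 72 pairs. Against DMSO, every pair did so for EZH2i in all 4 lines and for DOT1Li and Combo in Oci-Ly8, SUDHL6 and Oci-Ly18. Blocked counts of members stand beside some counts there, and beside the departure from additivity, although that mean includes Oci-Ly7. The log2 fold changes, SE and adjusted p of single genes come from the fit without the block. With the block 69 member results gained a call and 0 lost theirs, so a gene without a call here can pass there. Each leave-one-out fit kept the dispersion trend of the full fit.

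Data were simulated from the DMSO means of each line and these library sizes. For the Combo mean, 91 of 100 genes changed by a log2 of 1 and 93 of 100 changed by 0.5 were recovered, with 10 false calls. For Combo in SUDHL6 alone they were 96 and 78 of 100, with 7 false calls. Genes with few counts were not among those changed, the spread followed the dispersion trend alone, and libraries varied independently. The figures therefore do not cover members with few counts or the shared deviations of same-numbered libraries. Promoter windows and motifs come from RefSeq sequences of build GRCh38.p14.

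All 37 members are accounted for. Values by library are given for up to 3 members per role with the smallest adjusted p among Combo calls, for ATF4, and for members called in opposite directions. For the last, some called lines have the log2 fold change alone. Outside this rule, values by library are also given for CEBPG, DDIT4, ASNS and SLC38A2. The members and all lists were chosen with earlier results of these data known.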

Additional observations from a re-analysis of the deposited data

Results flagged for a closer look

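Each result here is a treatment effect that differed between the 4 lines in edgeR's test of the difference itself, at an adjusted p under 0.05 over all genes. The size in each line stands in the plot of log2 fold changes by line and treatment. With DOT1Li this held for 1 member, SLC1A4 (adjusted p 0.0213), at a log2 fold change of -0.49 in Oci-Ly7, -0.04 in Oci-Ly8, 0.26 in SUDHL6 and 0.02 in Oci-Ly18. The count was 0 without Oci-Ly7 DMSO replicate 1, Oci-Ly7 DOT1Li replicate 2 or 3, SUDHL6 DMSO replicate 2 or SUDHL6 DOT1Li replicate 3, and 6 without Oci-Ly7 DOT1Li replicate 1.

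With EZH2i it held for 20 members. Among the transcription factors and TRIB3 the adjusted p with EZH2i was 0.000116 for ATF5, 0.039 for ATF3, 0.0201 for CEBPG and 0.00149 for TRIB3. Among the stress effectors the adjusted p with EZH2i was 0.000424 for SESN2, 0.00291 for CHAC1 and 0.000178 for VLDLR. Among the serine and one-carbon enzymes the adjusted p with EZH2i was 0.0149 for PHGDH, 1.03e-05 for PSAT1, 4.53e-05 for PSPH and 0.0405 for MTHFD2. Among the other amino acid enzymes the adjusted p with EZH2i was 8.27e-09 for PYCR1 and 0.00159 for GPT2. Among the transporters the adjusted p with EZH2i was 0.000467 for SLC7A5, 0.00248 for SLC3A2, 2.19e-05 for SLC7A11, 0.000601 for SLC1A5, 2.43e-07 for SLC1A4 and 0.00204 for SLC38A2. For XPOT it was 0.00509.

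With Combo it held for 26 members. Among the transcription factors and TRIB3 the adjusted p with Combo was 0.0204 for ATF5, 0.0368 for ATF3, 0.0169 for DDIT3, 0.0113 for CEBPB and 7.33e-06 for TRIB3. Among the stress effectors the adjusted p with Combo was 0.00299 for DDIT4, 0.000334 for SESN2, 9.23e-05 for CHAC1 and 0.00102 for VLDLR. Among the serine and one-carbon enzymes the adjusted p with Combo was 0.000396 for PHGDH, 3.3e-05 for PSAT1, 0.00115 for PSPH, 0.000181 for SHMT1 and 0.0345 for MTHFD1L. Among the other amino acid enzymes the adjusted p with Combo was 1.14e-11 for PYCR1, 0.0037 for ALDH18A1, 0.000195 for GPT2 and 0.013 for PCK2. Among the transporters the adjusted p with Combo was 1.9e-05 for SLC7A5, 0.000661 for SLC3A2, 0.00444 for SLC7A11, 0.00977 for SLC7A1, 0.00109 for SLC1A5, 4.17e-07 for SLC1A4, 0.00246 for SLC38A1 and 2.17e-06 for SLC38A2.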

How the results depend on the processing

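Every count below is of members called, with the value of the fit reported above in brackets. Most member results kept their direction and side of the threshold: DESeq2 left 295 so and changed 14, DESeq2 size factors 298 and upper quartile scaling 299, whereas library totals alone made 36 lose their call. The results that changed sign with a call in either fit were all means of 3 lines with Combo. They were SLC1A4 at 0.23 without Oci-Ly7 (adjusted p 0.00716), GPT2 at 0.018 without SUDHL6 and PYCR1 at -0.11 without Oci-Ly18. Further results changed sign without a call in either fit, 2 with library totals alone and between 2 and 5 in each mean over 3 lines. The cause of these shifts was not tested, beyond the fewer libraries or genes a setting uses.

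With DESeq2, DOT1Li gave 1 higher in Oci-Ly7 (0), 1 lower in Oci-Ly18 (0) and 1 higher by the mean (0), EZH2i 5 higher by the mean (3), and Combo 2 higher in Oci-Ly7 (1). With each line fitted alone, DOT1Li gave 1 lower in Oci-Ly7 (5), 0 in Oci-Ly8 (6), 16 in SUDHL6 (6) and 9 in Oci-Ly18 (0). EZH2i then gave 6 lower in Oci-Ly7 (10), 9 higher in Oci-Ly8 (14), 13 lower in SUDHL6 (8), and 4 higher (1) and 11 lower (6) in Oci-Ly18. Combo gave 2 higher in Oci-Ly7 (1), and 3 higher (5) and 5 lower (10) in Oci-Ly8. With library totals alone, DOT1Li gave 2 lower in SUDHL6 (6) and 1 higher (0) and 11 lower (17) by the mean, EZH2i 5 lower in SUDHL6 (8) and 6 higher by the mean (3), Combo 5 lower in Oci-Ly8 (10), and Combo against DOT1Li 5 higher (3). With a filter of 1 CPM in 12 libraries, DOT1Li gave 1 lower in Oci-Ly18 (0).

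With no filter, DOT1Li gave 1 higher (0) and 11 lower (5) in Oci-Ly7, 1 higher (0) and 1 lower (0) in Oci-Ly18, 1 higher by the mean (0) and 7 that differed between lines (1). EZH2i gave 2 higher in Oci-Ly7 (1), 4 in Oci-Ly18 (1) and 7 by the mean (3), Combo 2 higher in Oci-Ly7 (1), Combo against DOT1Li 5 higher (3), and non-additivity 2 lower (0). With the replicate block, DOT1Li gave 11 lower members (5) and 1 higher (0) in Oci-Ly7, 13 lower (6) and 1 higher (0) in Oci-Ly8, 13 lower in SUDHL6 (6), 1 lower in Oci-Ly18 (0), 1 higher by the mean (0) and 9 that differed between lines (1). EZH2i gave 1 lower in Oci-Ly8 (0), 5 higher in Oci-Ly18 (1) and 8 higher by the mean (3), Combo 2 higher in Oci-Ly7 (1), and non-additivity 2 lower (0). The block made 69 member results pass the threshold and ended 0 calls. In Oci-Ly7 not every same-numbered pair with DMSO passed a correlation of 0.1. The range was 0.066 to 0.289 for DOT1Li and 0.061 to 0.182 for Combo, so pairing is less clear there and in their means.

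Without the 2 Oci-Ly8 libraries low in long transcripts, DOT1Li gave 1 lower in Oci-Ly8 (6) and 1 in Oci-Ly18 (0) and 2 that differed between lines (1), EZH2i 2 higher in Oci-Ly18 (1), and Combo 6 lower in Oci-Ly8 (10). Of means over 3 lines, DOT1Li gave 1 higher without Oci-Ly18 (0). EZH2i gave 5 higher without Oci-Ly18, 7 without Oci-Ly7 and 1 without Oci-Ly8 (3). Combo against DOT1Li gave 1 higher without Oci-Ly8 (3), and Combo against EZH2i 0 higher without Oci-Ly7 or Oci-Ly8 (1).

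Leaving out each library in turn, DOT1Li gave 0 to 14 lower in Oci-Ly7, 0 to 9 in Oci-Ly8, 1 to 7 in SUDHL6, 0 to 1 in Oci-Ly18 and 13 to 21 by the mean, 0 to 1 higher in Oci-Ly7 and by the mean, and 0 to 6 that differed between lines. EZH2i gave 2 to 4 higher and 4 to 8 lower in SUDHL6, 1 to 2 higher and 3 to 6 lower in Oci-Ly18, 0 to 1 lower in Oci-Ly8 and 2 to 6 higher by the mean. Combo gave 1 to 2 higher in Oci-Ly7, 3 to 6 higher and 6 to 11 lower in Oci-Ly8, 1 to 4 higher in Oci-Ly18 and 19 to 22 lower by the mean, and Combo against EZH2i 0 to 1 higher. Few counts limit NUPR1, ASNS, and VLDLR, STC2, ATF3 and ALDH1L2 in the lines that barely express them.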
